A study of Mus musculus with 15 samples.

Results

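The genes described here are Nnt, the nicotinamide nucleotide transhydrogenase of the inner mitochondrial membrane, and other mitochondrial redox enzymes, measured in the heart. Of 10 genes named for the purpose (Nnt, Idh2, Sod2, Prdx3, Prdx5, Txn2, Txnrd2, Glrx2, Gsr and Gpx1), 9 were represented among the 18190 genes that the array annotation names singly, by 23 of its 45096 probe sets. A probe set was taken where the array's annotation gave exactly 1 of these symbols, whatever its values. Nnt and Txn2 had 3 probe sets each, Idh2 and Gsr 2, Sod2 and Txnrd2 4, Glrx2 3, and Prdx3 and Gpx1 1 each. No probe set carried the symbol Prdx5, and it was not analysed here.

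The heart apex was sampled from 15 male mice, all labelled untreated, 5 of each of 3 groups, with 1 array per mouse. B6C3F1 (B6C3F1/J) mice are the first-generation cross of the parental strains and carry 1 chromosome set of each. The parental strain C3H is C3H/HeJ. The parental strain C57Bl/6 is C57BL/6J, which is known to carry a deletion of part of Nnt. At 7 weeks of age all mice underwent surgery under tribromoethanol to place a telemetry transmitter in the abdomen, and at 9 to 10 weeks they were killed with CO2. The comparisons ask how cardiac expression of these genes differs with strain. RNA from a piece of apex is a mixture of cell types, so that a lower level may reflect fewer cells of a type or less RNA per cell. Whether the strains differ in sequence under the probes was not examined. A difference in signal therefore need not be a difference in RNA.

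Mitochondria remove the superoxide that leaks from the respiratory chain in steps. Superoxide dismutase 2 (Sod2) turns it into hydrogen peroxide, which peroxiredoxins (Prdx3, Prdx5) and glutathione peroxidase (Gpx1) reduce to water. Peroxiredoxins are recharged by thioredoxin 2 (Txn2) and its reductase (Txnrd2), glutathione is recharged by glutathione reductase (Gsr), and glutaredoxin 2 (Glrx2) uses glutathione to repair oxidised protein thiols. Both systems run on NADPH, which the heart's mitochondria make chiefly through Nnt, driven by the proton gradient, and through isocitrate dehydrogenase 2 (Idh2).

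Gpx1 and Txn2 are shown first by sequence, because in the C3H hearts Gpx1 passed as higher and Txn2 probe sets passed as lower. The windows are RefSeq promoter sequences of GRCm38.p6, 300 bases each, which is the sequence of C57BL/6J. Capitals mark each GC box (GGGCGG) and CCAAT box (CCAAT) on either strand, and no capitals overlap. Another motif searched, the core of the antioxidant response element (TGACNNNGC), has no match in either window. Among 32851 promoter windows of this length, 35.7% hold a GC box, 37.4% a CCAAT box and 12.4% the TGACNNNGC core.
Gpx1, chr9:108338830-108339129, plus strand: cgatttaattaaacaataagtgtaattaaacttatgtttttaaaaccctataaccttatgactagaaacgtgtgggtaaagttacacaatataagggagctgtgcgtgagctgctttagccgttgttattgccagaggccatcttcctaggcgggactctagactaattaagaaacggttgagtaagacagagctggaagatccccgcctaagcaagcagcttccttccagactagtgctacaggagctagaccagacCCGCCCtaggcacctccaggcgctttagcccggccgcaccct
Txn2, chr15:77928945-77929244, minus strand: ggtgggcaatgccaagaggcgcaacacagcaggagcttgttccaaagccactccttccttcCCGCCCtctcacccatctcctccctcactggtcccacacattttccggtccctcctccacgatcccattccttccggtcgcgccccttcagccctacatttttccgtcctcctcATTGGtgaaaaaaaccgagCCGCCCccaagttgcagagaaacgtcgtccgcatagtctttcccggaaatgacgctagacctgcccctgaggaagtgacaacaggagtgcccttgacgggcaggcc
The Gpx1 window holds 1 GC box and no CCAAT box. The Txn2 window holds 2 GC boxes and 1 CCAAT box. Such matches are letters in a window and say nothing of which factor binds there.

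All values are log2(signal + 16), where the signal is the MAS5 value of a probe set, and a probe set passed at an adjusted p under 0.05 in a limma fit over 27019 probe sets and all 15 arrays. Each of the 23 probe sets lay above the limit for dim signals (5.74). The 2% trimmed mean signal was 500.26 to 500.28 on every array and no arrays held identical values. All 6 cardiomyocyte markers lay above the dim limit, and their summed signal was 18.04 to 18.60 on the B6C3F1, 18.06 to 18.41 on the C3H and 18.22 to 18.63 on the C57Bl/6 arrays on the log2 scale. Of 8 markers of mitochondrial content, 0 passed in any comparison by the same fit, and their summed signal was 18.08 to 18.50 in B6C3F1, 18.11 to 18.36 in C3H and 18.23 to 18.52 in C57Bl/6.

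Between the inbred strains, 6 of the 23 probe sets passed, 2 higher and 4 lower in C3H than in C57Bl/6. They belong to 5 of the 9 genes. This is 26.1% of the members, against 12.7% of all probe sets tested (5.7% higher and 7.01% lower). The members were chosen with earlier results of these data known, and probe sets of 1 gene are not independent. The 2 shares are therefore a description and not a test. The differences of the members ran from -0.59 to 0.61 with a median of -0.06, against a median of -0.03 over all probe sets. Their median size was 0.19, against 0.24 over all probe sets. In no member were the 5 arrays of one strain all above or all below those of the other, whereas 9.56% of all probe sets had such separation. In B6C3F1 against C57Bl/6 hearts 1 of 23 passed (4.35%, against 2.99% of all, and 1.58% in the higher direction), and the arrays of 1 member, an Nnt probe set, did not overlap (4.35%, against 5.33% of all). In B6C3F1 against C3H hearts 0 of 23 passed by limma, against 4.92% of all that passed at the same adjusted p. Of the members, 1 lay at an unadjusted p under 0.05. After centring each array on its median, the 4 lower calls in C3H were lost and the 2 higher calls (Nnt and Gpx1) were kept, while the higher share of all calls was 66.8% with centring, against 44.9% without it. These comparisons share arrays, so that a gene's differences in them are not independent.

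**Figure D1:**
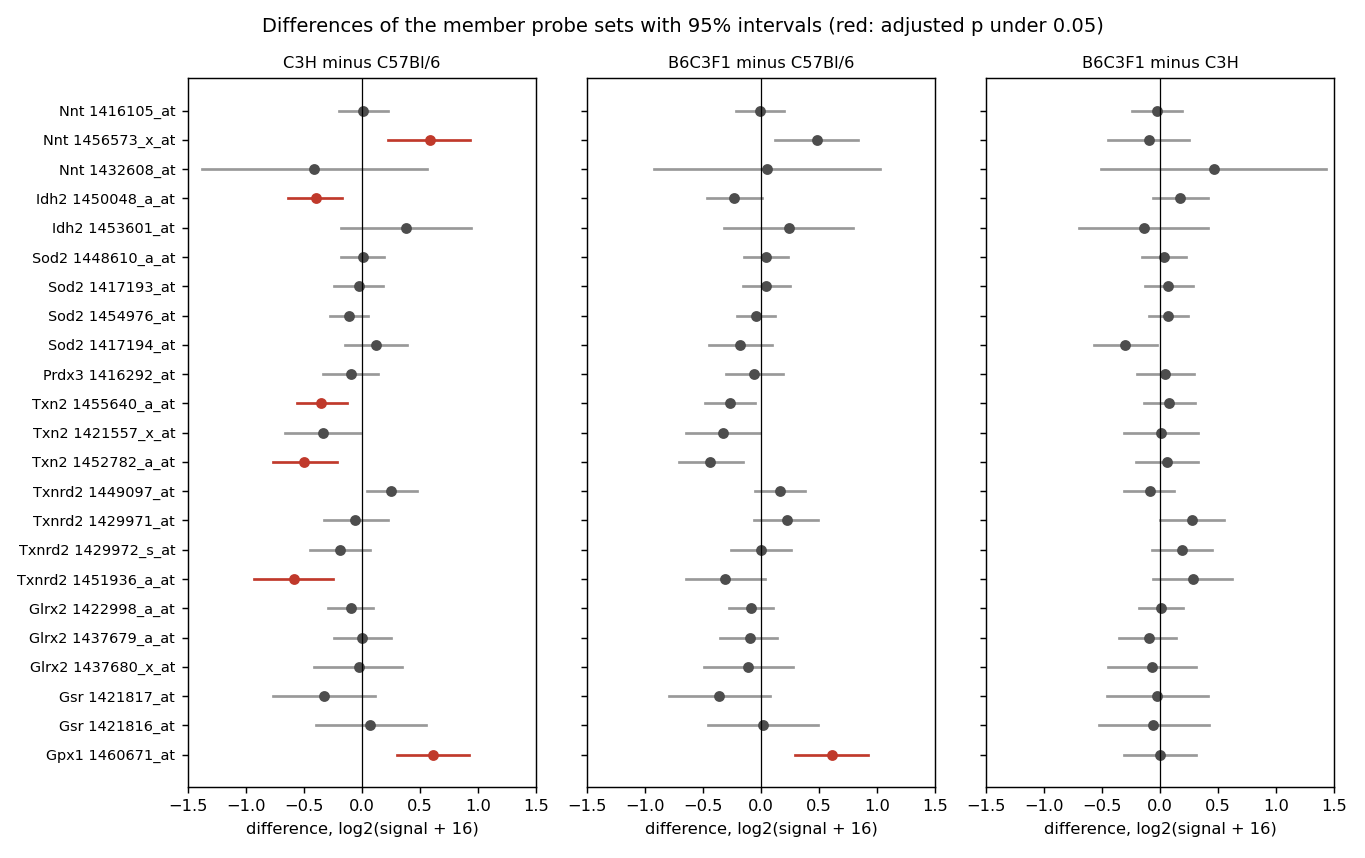
Differences of the 23 member probe sets on the log2(signal + 16) scale (horizontal axis) for C3H minus C57Bl/6, B6C3F1 minus C57Bl/6 and B6C3F1 minus C3H, with points for the estimates, lines for 95% intervals and red for an adjusted p under 0.05. There are 6 red points in the C3H minus C57Bl/6 panel, 1 (Gpx1) in the B6C3F1 minus C57Bl/6 panel and 0 in the B6C3F1 minus C3H panel.

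Nnt is the gene with the known deletion, and its probe sets gave different answers. The brightest, 1416105_at, read 14.08, 14.14, 14.39, 14.07 and 14.20 in B6C3F1, 14.36, 14.11, 14.25, 14.11 and 14.16 in C3H, and 14.40, 13.93, 14.01, 14.38 and 14.21 in C57Bl/6. The 3 groups overlap throughout, and the C57Bl/6 arrays hold both the highest and the lowest value. The difference C3H minus C57Bl/6 was 0.01 ± 0.10 (SE, adjusted p = 0.958), with a 95% interval of -0.20 to 0.22. A difference of 1.5-fold in what these probes detect lies outside that interval. For B6C3F1 minus C57Bl/6 it was -0.01 (95% interval -0.22 to 0.20).

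The probe set 1456573_x_at of Nnt did pass between the inbred strains. It read 13.23, 12.87, 12.93, 12.81 and 12.89 in B6C3F1, 13.31, 12.85, 13.63, 13.18 and 12.27 in C3H, and 12.61, 12.38, 12.39, 12.53 and 12.43 in C57Bl/6. All B6C3F1 arrays and 4 of the 5 C3H arrays lie above every C57Bl/6 array, while C3H replicate 5 lies below them all. C3H averaged 13.05 ± 0.52 and C57Bl/6 12.47 ± 0.10 (SD, n = 5 each), a difference of 0.58 ± 0.17 (SE, 1.49-fold, adjusted p = 0.0275). In B6C3F1 the mean was 12.95 ± 0.16, which differed from C57Bl/6 by 0.48 (adjusted p = 0.131), from C3H by -0.10 (adjusted p = 0.825) and from the midparent, the mean of both parental means, by 0.19 (adjusted p = 0.603). The suffix _x_at marks a design whose probes can match several transcripts. Without C3H replicate 5 the C3H difference was 0.77 (adjusted p = 0.000209) and B6C3F1 also passed against C57Bl/6 (0.48, adjusted p = 0.0289), whereas C3H minus C57Bl/6 did not pass under 10 of 26 alternatives (adjusted p = 0.0515 to 0.138), among them leaving out C3H replicate 1, 3 or 4 or C57Bl/6 replicate 2, 3 or 5.

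The remaining Nnt probe set, 1432608_at, was dim and scattered. It read 6.70, 4.35, 6.99, 5.84 and 7.25 in B6C3F1, 6.35, 5.20, 5.89, 4.87 and 6.50 in C3H, and 5.77, 6.56, 6.35, 6.29 and 5.89 in C57Bl/6. The groups overlap, with the widest spread in B6C3F1 (SD 1.18). The C3H value minus that of C57Bl/6 was -0.41 (95% interval -1.38 to 0.56, adjusted p = 0.643), an interval too wide to place this set on either side. Which of the 3 probe sets lie in the deleted part of Nnt is stated in no source used here, so that none of them checks the deletion.

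**Figure D2:**
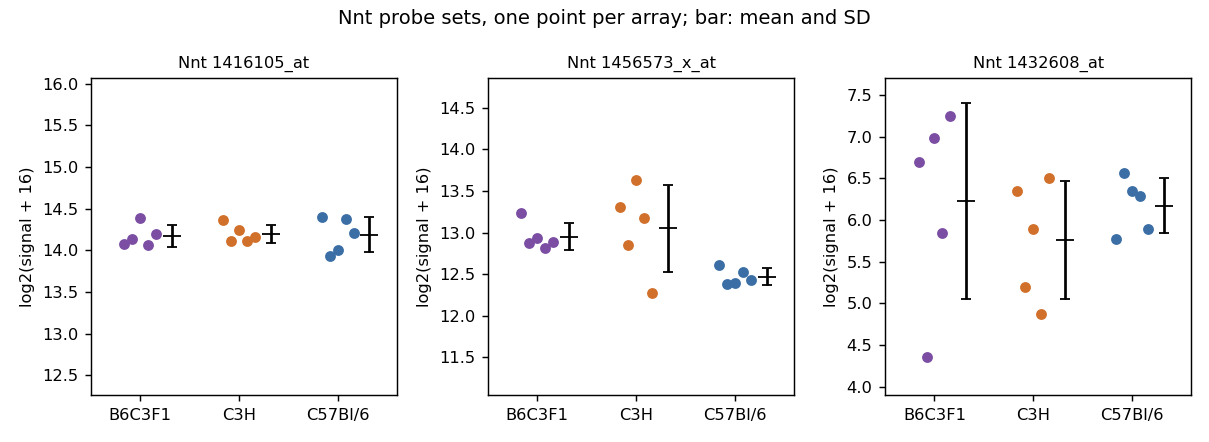
Signal of the 3 Nnt probe sets as log2(signal + 16) on the vertical axis, 1 point for each array, with the 5 B6C3F1, 5 C3H and 5 C57Bl/6 mice side by side and a bar for the mean and SD of each group. The vertical span is the same in the 3 panels: the 1416105_at groups lie on one level near 14.2, in 1456573_x_at the C57Bl/6 arrays (12.38 to 12.61) lie below all others except C3H replicate 5 (12.27), and 1432608_at is scattered.

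Other probe sets followed each of the Nnt probe sets across the 15 arrays, out of 23045 of other single genes. Those with the highest Pearson correlation to 1416105_at were Numa1 (0.87), Itm2b (0.86) and Dsp (0.85). For 1456573_x_at they were Ccni (0.94), Sf3b1 (0.92) and Pdk1 (0.90), and for 1432608_at Slc16a9 (0.85), Clic5 (0.84) and Tmem229b (0.81). No gene is shared among these lists. The arrays share strain and scaling, so that these values only describe likeness. Ccni averaged 12.11 in B6C3F1, 12.21 in C3H and 11.76 in C57Bl/6, the same order of strains as 1456573_x_at. Ccni was picked by its correlation over these same arrays, so that the shared order is no separate observation.

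Idh2, the other main mitochondrial source of NADPH, was lower in C3H. Its bright probe set 1450048_a_at read 14.93, 15.45, 15.38, 15.21 and 15.17 in B6C3F1, 15.20, 14.98, 14.92, 15.04 and 15.14 in C3H, and 15.68, 15.41, 15.19, 15.70 and 15.30 in C57Bl/6. The highest C3H array (15.20) lies just above the lowest C57Bl/6 array (15.19), and the B6C3F1 arrays overlap both strains. The difference C3H minus C57Bl/6 was -0.40 ± 0.11 (SE, 1.32-fold lower, adjusted p = 0.0215). B6C3F1 differed from C57Bl/6 by -0.23 (adjusted p = 0.275), from C3H by 0.17 (adjusted p = 0.478) and from the midparent by -0.03. The dim probe set 1453601_at differed the other way, by 0.38 with a 95% interval of -0.18 to 0.94 (adjusted p = 0.412). The fall in 1450048_a_at did not pass under 8 of 27 alternatives (adjusted p = 0.0519 to 0.0934), including centring each array on its median (-0.27, adjusted p = 0.0934), the Gapdh ratio as a covariate (-0.29, adjusted p = 0.0886) and leaving out C3H replicate 2 or 3 or C57Bl/6 replicate 1 or 4.

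Superoxide dismutase 2, the manganese enzyme of the matrix, gave no call in any of its 4 probe sets. The brightest, 1448610_a_at, averaged 15.21 ± 0.13 in B6C3F1, 15.18 ± 0.12 in C3H and 15.18 ± 0.13 in C57Bl/6 (SD, n = 5 each). Between the inbred strains the difference was 0.01 with a 95% interval of -0.18 to 0.19, so that a difference of 1.5-fold lies outside the interval. The other Sod2 probe sets differed between these strains by -0.03 (1417193_at), -0.11 (1454976_at) and 0.12 (1417194_at). In 1417194_at B6C3F1 differed from C3H by -0.30 (95% interval -0.57 to -0.03, adjusted p = 0.237), the only member value between these groups at an unadjusted p under 0.05.

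Of the peroxiredoxins, Prdx3, which reduces most hydrogen peroxide in the matrix, was measured. Its single probe set lay at 13.27 to 13.61 in B6C3F1, 13.24 to 13.58 in C3H and 13.25 to 13.87 in C57Bl/6. C57Bl/6 replicate 1 held the highest value, and the groups overlap. C3H minus C57Bl/6 was -0.10 (95% interval -0.34 to 0.14) and B6C3F1 minus C57Bl/6 was -0.06 (95% interval -0.30 to 0.19).

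Txn2, the thioredoxin that recharges Prdx3, was lower in C3H in 2 of its 3 probe sets. The set 1452782_a_at read 11.28, 11.31, 11.28, 11.36 and 11.73 in B6C3F1, 11.56, 11.14, 11.02, 11.30 and 11.64 in C3H, and 11.93, 11.49, 12.07, 11.78 and 11.87 in C57Bl/6. Apart from C57Bl/6 replicate 2, every C57Bl/6 array lies above every C3H and B6C3F1 array. The difference was -0.50 ± 0.13 (SE, 1.41-fold lower, adjusted p = 0.0143) for C3H minus C57Bl/6 and -0.44 (adjusted p = 0.0748) for B6C3F1 minus C57Bl/6.

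The set 1455640_a_at read 12.80, 12.93, 12.92, 12.86 and 13.13 in B6C3F1, 12.93, 12.57, 12.70, 12.90 and 13.15 in C3H, and 13.35, 13.10, 13.31, 13.08 and 13.13 in C57Bl/6. The overlap comes from replicate 5 of B6C3F1 and of C3H, each the highest of its group. C3H minus C57Bl/6 was -0.35 ± 0.10 (SE, 1.27-fold lower, adjusted p = 0.0308), and B6C3F1 minus C57Bl/6 was -0.27 (adjusted p = 0.167). The set 1421557_x_at, whose probes can match several transcripts, differed by -0.34 (adjusted p = 0.167) and -0.33 (adjusted p = 0.249) in the same comparisons. B6C3F1 minus C3H was 0.08, 0.01 and 0.06 in 1455640_a_at, 1421557_x_at and 1452782_a_at. For C3H minus C57Bl/6, the call on 1452782_a_at was lost after centring (-0.37, adjusted p = 0.142), with the poly-A controls as covariate (-0.49, adjusted p = 0.0638) and without C3H replicate 3, while 1455640_a_at did not pass under 9 of 27 alternatives (adjusted p = 0.0559 to 0.317).

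Txnrd2, the selenoenzyme that reduces Txn2, gave calls that depended on the probe set. The dimmest of its 4, 1451936_a_at, read 8.31, 8.41, 8.47, 8.10 and 8.96 in B6C3F1, 8.27, 8.11, 8.54, 7.96 and 7.97 in C3H, and 8.97, 8.86, 8.65, 8.80 and 8.52 in C57Bl/6. The highest C3H array lies just above the lowest C57Bl/6 array, and the B6C3F1 arrays overlap both strains. The inbred strains differed by -0.59 ± 0.16 (SE, 1.5-fold lower, adjusted p = 0.0187), and B6C3F1 lay between at a mean of 8.45, which differed from C57Bl/6 by -0.31 (adjusted p = 0.31). The brightest set, 1449097_at, differed between the inbred strains the other way, by 0.25 (adjusted p = 0.123), and 1429971_at and 1429972_s_at by -0.06 and -0.19, so that no single direction holds for Txnrd2. The call on 1451936_a_at was lost after centring (-0.47, adjusted p = 0.095), with the poly-A controls as covariate (-0.59, adjusted p = 0.0708) and without C3H replicate 4 or C57Bl/6 replicate 1.

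Gpx1, the selenium-dependent peroxidase of cytosol and mitochondria, was higher in both other groups than in C57Bl/6. It read 12.19, 12.36, 12.44, 12.34 and 12.10 in B6C3F1, 11.82, 12.33, 12.31, 12.27 and 12.70 in C3H, and 11.24, 12.13, 11.56, 11.65 and 11.81 in C57Bl/6. C57Bl/6 replicate 2 overlaps the other groups, and C3H replicate 1 is the lowest of its group. Means were 12.28 ± 0.14 in B6C3F1, 12.29 ± 0.31 in C3H and 11.68 ± 0.33 in C57Bl/6 (SD, n = 5 each). The difference was 0.61 ± 0.15 (SE, 1.53-fold, adjusted p = 0.00876) for C3H minus C57Bl/6 and 0.61 ± 0.15 (1.52-fold, adjusted p = 0.0304) for B6C3F1 minus C57Bl/6. B6C3F1 minus C3H was 0.00 (95% interval -0.31 to 0.31). B6C3F1 minus the midparent was 0.30, with a 95% interval of 0.03 to 0.57 and an adjusted p of 0.315. The C3H call was kept under all 27 alternatives (0.50 to 0.74, adjusted p = 0.00125 to 0.0354). The B6C3F1 call was lost under 8 of 27 (adjusted p = 0.0565 to 0.0976), namely without the intensity trend or when B6C3F1 replicate 1, 2, 3 or 4 or C57Bl/6 replicate 1, 3 or 4 was left out.

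**Figure D3:**
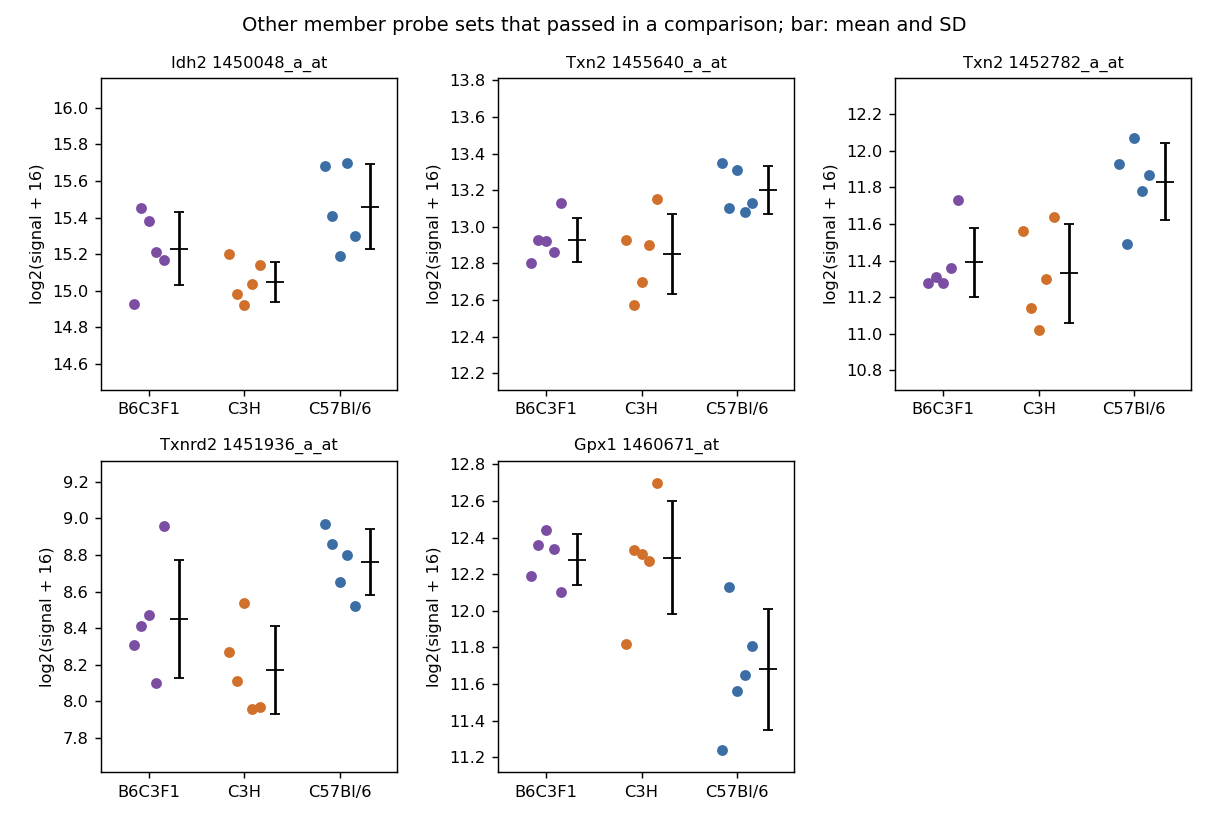
Signal of the 5 probe sets other than Nnt that passed in a comparison, as log2(signal + 16) on the vertical axis, 1 point for each array of B6C3F1, C3H and C57Bl/6, with a bar for the mean and SD of each group. The vertical span is the same in all panels: C57Bl/6 means are above the C3H means for Idh2, Txn2 and Txnrd2 and below them for Gpx1 (C3H 12.29, C57Bl/6 11.68).

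The glutathione enzymes of the group other than Gpx1 gave no call. Glrx2 differed between C3H and C57Bl/6 by -0.10 (1422998_a_at), 0.00 (1437679_a_at) and -0.03 (1437680_x_at), with the narrowest 95% interval at -0.29 to 0.09. Gsr was measured by 2 sets, 1421817_at at 7.61 to 8.12 in B6C3F1, 7.40 to 8.29 in C3H and 7.66 to 8.91 in C57Bl/6, and 1421816_at at 6.89 to 7.43, 6.85 to 7.84 and 6.59 to 7.65 in the same groups. C3H minus C57Bl/6 was -0.33 (95% interval -0.77 to 0.11) in the first and 0.07 (95% interval -0.40 to 0.55) in the other, so that a difference of 1.5-fold was not excluded for 1421817_at.

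The cross was set against the midparent to see whether any member left the middle of the parental levels. By limma 0 of 23 probe sets passed, against 0.603% of all probe sets, with 3 at an unadjusted p under 0.05. These were Gpx1 (0.30), Txnrd2 1429971_at (0.24, adjusted p = 0.362) and Sod2 1417194_at (-0.24, adjusted p = 0.37). The members' differences from the midparent ran from -0.24 to 0.30 with a median of -0.02, against 0.02 over all probe sets.

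Other redox genes were taken from 5 lists of 60 genes, each gene by its probe set of highest mean. The lists, like the members, were chosen with earlier results of these data known. Of 56 tested, 8 were higher and 4 lower in C3H than in C57Bl/6, against 6.83% higher and 7.89% lower of 13111 genes taken in the same way. The list medians ran from -0.13 to 0.22. In B6C3F1 against C57Bl/6, 1 was higher and 0 lower, against 1.85% and 1.47% of genes. In B6C3F1 against C3H, 1 was higher and 4 were lower, against 3.33% and 2.39%. In B6C3F1 against the midparent 0 of 56 passed by limma, against 0.603%. These shares also stand beside the counts of each list below.

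Among 18 other mitochondrial genes, 1 rose and 1 fell in C3H relative to C57Bl/6. Slc25a40, a carrier linked to glutathione import into mitochondria, lay at 9.63 to 9.82 in B6C3F1, 9.91 to 10.51 in C3H and 9.13 to 9.77 in C57Bl/6. All C3H arrays lie above all others (0.88 against C57Bl/6, 1.84-fold, adjusted p = 5.99e-05), and B6C3F1 was lower than C3H by -0.52 (adjusted p = 0.0199), a call lost with the poly-A controls as covariate and without B6C3F1 replicate 1 or C3H replicate 4. Msrb2, a mitochondrial methionine sulfoxide reductase, fell by 0.47 in C3H against C57Bl/6 (adjusted p = 0.000832), a call lost after centring (adjusted p = 0.0937). Slc25a39, the close relative of Slc25a40, differed by 0.08 (adjusted p = 0.827), and Nadk2, the mitochondrial NAD kinase, by -0.54 (adjusted p = 0.0698).

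The glutathione list of the cytosol and outside the cell held 4 of 12 tested genes higher in C3H than in C57Bl/6 and 0 lower. Of all genes taken in the same way, 6.83% were higher and 7.89% lower. The list was not tested as a set. Glrx, the cytosolic glutaredoxin, lay at 11.25 to 11.76 in B6C3F1, 11.45 to 11.84 in C3H and 10.94 to 11.20 in C57Bl/6. It was 1.52-fold higher in C3H (0.60, adjusted p = 0.000313) and 1.48-fold higher in B6C3F1 (0.56, adjusted p = 0.00308) than in C57Bl/6, with no overlap of either group with C57Bl/6, and its other probe set differed by 0.75 (adjusted p = 0.0272) and 0.53 (adjusted p = 0.192). Gpx3, the secreted peroxidase, was higher in C3H than in C57Bl/6 by 0.58 (adjusted p = 7.37e-05), and B6C3F1 differed from C3H by -0.55 (adjusted p = 0.00043). Its B6C3F1 minus C57Bl/6 difference was 0.03 (95% interval -0.15 to 0.21). Ggt5, a gamma-glutamyl transferase family member, was 2.42-fold higher in C3H (adjusted p = 0.00545), but its 2 dimmer probe sets differed by 0.29 and 0.02. Gss, glutathione synthetase, was higher by 0.38 (adjusted p = 0.0401), a call lost under 12 of 27 alternatives, and by 0.05 in its other probe set.

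Of 8 genes that make or remove superoxide and peroxide or repair oxidised methionine, 2 were higher and 2 lower in C3H than in C57Bl/6. Sod1, the cytosolic dismutase, fell by 0.39 (adjusted p = 0.00216) and Cat, catalase, by 0.42 (adjusted p = 0.0394). The Sod1 call was lost after centring (adjusted p = 0.0999). The Cat call was lost under 13 of 27 alternatives (adjusted p = 0.0522 to 0.214), among them centring, both covariates and leaving out C3H replicate 2, 4 or 5 or C57Bl/6 replicate 1, 2, 3 or 4. In the same comparison the next probe sets of these genes by mean differed by -0.14 for Sod1 and 0.13 for Cat. Msra, a methionine sulfoxide reductase, was higher by 0.55 (adjusted p = 0.00669), and Cybb, a subunit of the phagocyte NADPH oxidase, by 0.52 (adjusted p = 0.026). Cybb was also lower in B6C3F1 than in C3H (-0.59, adjusted p = 0.0233). Its 2 dimmer probe sets differed between C3H and C57Bl/6 by -0.30 and -0.69. Its C3H call was lost under 6 of 27 alternatives and its B6C3F1 minus C3H call under 6 of 27.

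Of 7 tested genes of cytosolic NADPH supply, 1 was higher and 1 lower in C3H than in C57Bl/6, and the other 5 differed by -0.28 to 0.05 and did not pass. Me1, cytosolic malic enzyme, lay at 11.47 to 11.68 in B6C3F1, 10.99 to 11.17 in C3H and 11.70 to 11.97 in C57Bl/6, so that the 3 groups do not overlap. It fell by 0.79 in C3H against C57Bl/6 (1.73-fold lower, adjusted p = 8.39e-07) and was higher in B6C3F1 than in C3H by 0.49 (adjusted p = 0.000916). B6C3F1 minus C57Bl/6 was -0.30 and did not pass (adjusted p = 0.0584). In the other Me1 probe set, C3H minus C57Bl/6 was -1.27 and B6C3F1 minus C3H was 0.95. There the B6C3F1 and C57Bl/6 arrays overlap, with a difference of -0.32 (adjusted p = 0.112). Pgd, of the pentose phosphate pathway, was higher in C3H than in C57Bl/6 by 0.42 (adjusted p = 0.00258) and lower in B6C3F1 than in C3H by -0.31 (adjusted p = 0.0453), the last call being lost under 17 of 27 alternatives. Of 13 cytosolic thioredoxin and peroxiredoxin genes listed, 11 were tested and 0 passed in any comparison by limma. Prdx1 and Prdx6 had no probe set that names them singly. Srxn1 came nearest to passing, at -0.62 for B6C3F1 minus C57Bl/6 (adjusted p = 0.0508). Txn1 differed between C3H and C57Bl/6 by -0.05, Prdx2 by 0.16 and Txnrd1 by -0.46 (adjusted p = 0.0974).

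**Figure D4:**
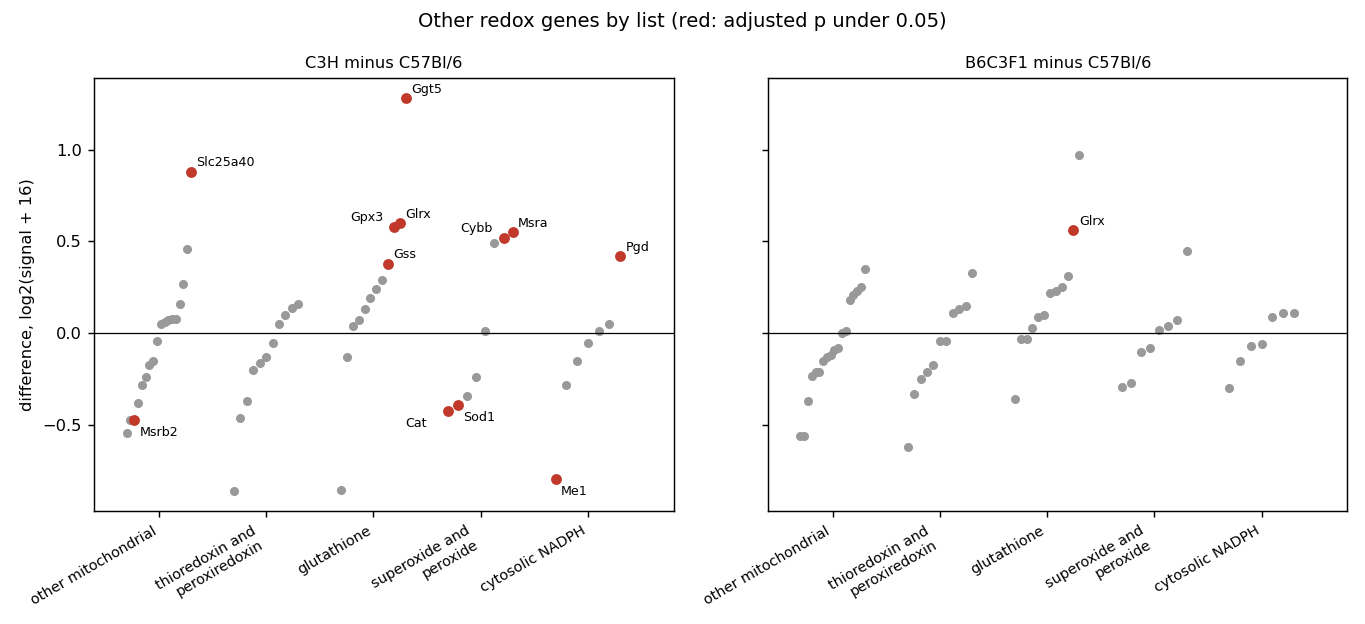
Differences of 56 other redox genes, each by its probe set of highest mean, on the log2(signal + 16) scale (vertical axis) for C3H minus C57Bl/6 (left) and B6C3F1 minus C57Bl/6 (right), grouped by list along the horizontal axis and sorted within each list, with red for an adjusted p under 0.05. In the left panel 12 genes are red, Ggt5 and Slc25a40 at the top (1.28 and 0.88) and Me1 at the bottom (-0.79) among them, and in the right panel only Glrx (0.56).

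Other measures moved with strain beside these results. Poly-A control RNAs added during labelling averaged 10.33 ± 0.13 in B6C3F1, 11.05 ± 0.80 in C3H and 10.26 ± 0.57 in C57Bl/6 (SD, n = 5 each, log2). Every C3H array (10.63 to 12.48) lay above every B6C3F1 array (10.23 to 10.54) and every C57Bl/6 array (9.25 to 10.55). C3H replicate 4 was the highest and C57Bl/6 replicate 5 the lowest of all. The ratio of Gapdh signals at the 3 prime and 5 prime ends, which reflects RNA integrity, averaged 0.90 ± 0.21 in B6C3F1, 0.60 ± 0.26 in C3H and 0.85 ± 0.24 in C57Bl/6 on the log2 scale (SD, n = 5 each). In C3H, 4 arrays lay at 0.39 to 0.56 and replicate 4 at 1.06, whereas in C57Bl/6 4 arrays lay at 0.78 to 1.05 and replicate 5 at 0.46. Cell type markers were taken by their probe sets of highest mean. Of all genes taken so, 6.83% were higher and 7.89% lower in C3H than in C57Bl/6. In B6C3F1, 1.85% were higher than in C57Bl/6. Of 6 fibroblast markers, 3 were higher in C3H and 2 in B6C3F1 than in C57Bl/6. Their summed signals were 15.32 to 15.55 in B6C3F1, 15.16 to 15.63 in C3H and 14.89 to 15.28 in C57Bl/6. Of 6 endothelial markers, 3 were lower in C3H than in C57Bl/6, with summed signals of 12.97 to 13.66 in B6C3F1, 12.62 to 13.31 in C3H and 13.28 to 13.56 in C57Bl/6. Of 3 atrial markers tested, 1 was higher in C3H than in C57Bl/6, with summed signals of 12.24 to 13.95 in B6C3F1, 12.64 to 14.18 in C3H and 12.24 to 12.72 in C57Bl/6. Of 4 macrophage markers, 1 was higher and 1 lower in C3H than in C57Bl/6. The 1 red cell marker tested, Alas2, the haem synthesis enzyme of red cell precursors, was lower in C3H than in C57Bl/6 by -0.79 (1.72-fold, adjusted p = 0.0173). The summed red cell signal was 10.44 to 10.83 in B6C3F1, 9.84 to 11.21 in C3H and 10.48 to 11.66 in C57Bl/6. The part of these cell types in the redox differences was not tested.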

How the data were processed

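Signals of 45096 probe sets on 15 Affymetrix arrays, 1 for each mouse, were used. The deposited values are on the log2 scale and come from the MAS5 algorithm, per the submitters' processing notes, with its version not given. The 2% trimmed mean of linear signals was 500.26 to 500.28 on all arrays, so that these had been scaled to one mean. A probe set was named where the platform annotation gave 1 symbol (34940 of 45032 that are not controls, with 932 giving several and 9160 none).

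Signals were written as log2(signal + 16). Probe sets whose mean lay at or above the 40th percentile (27019) were fitted with limma 3.58.1 in R 4.3.3 (lmFit, eBayes with an intensity trend), with all 3 groups in one fit and no covariate. P-values were adjusted by the Benjamini-Hochberg method over all 27019, and 4 contrasts were taken. Precision is limited by the number of arrays. The labels give no batch. The p-values set each difference against the spread between mice within the groups, and do not cover handling that differed with strain.

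The members and the gene lists were chosen with earlier results of these data known. Every member probe set was named, and each other redox gene was taken by its probe set of highest mean. Of these, the genes that passed were named. Slc25a39, Nadk2, Srxn1, Txn1, Prdx2 and Txnrd1, which did not pass, were picked after their values were seen. Alternatives changed the pseudocount, the limit for dim probe sets, the normalization, the trend, the strains fitted, the replicate block and the covariates, or left out 1 array.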

Additional observations from a re-analysis of the deposited data

Results flagged for a closer look

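Of 69 groups of 5 arrays (23 probe sets in 3 strains), 4 held an array whose gap to its nearest neighbour was above Dixon's 95% critical value as a share of the group's whole range (0.77 to 0.81 of the range). Chance alone marks about 1 in 20 groups. Both marked Txn2 probe sets had the same array, B6C3F1 replicate 5, as their highest. It read 12.46 in 1421557_x_at, where the other B6C3F1 arrays lay at 12.02 to 12.11, and 11.73 in 1452782_a_at, where the others lay at 11.28 to 11.36. Without this array, B6C3F1 minus C57Bl/6 in 1452782_a_at was -0.52 (adjusted p = 0.0259), against -0.44 (adjusted p = 0.0748) with it. In Sod2 1417194_at, B6C3F1 replicate 3 read 9.08, below the others at 9.42 to 9.52. In Glrx2 1437679_a_at, C57Bl/6 replicate 4 read 11.31, below the others at 11.65 to 11.76.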

How the results depend on the processing

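The number of member probe sets that passed in C3H against C57Bl/6 was 6. It became 2 with arrays centred on their medians, 3 without the intensity trend, 3 with the Gapdh ratio as a covariate and 2 with the poly-A controls as covariate. With only the probe set of highest mean for each of the 9 genes it was 3. That setting left out the other called probe sets, and no call among those it kept was lost. Leaving out each array in turn gave 2 to 7. In B6C3F1 against C57Bl/6 the number was 1, and became 0 without the trend and 3 with only the 2 strains compared, with 0 to 2 when arrays were left out. The other comparisons stayed at 0 by limma under every alternative run. No member changed direction after passing. Of 2397 pairs of a member contrast and an alternative, 42 lost a call and 7 gained one, and the cause was not tested. Of the 7 member calls, the higher Gpx1 in C3H was kept under all its alternatives and the other 6 were lost under at least 1.

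Over all probe sets, 3435 passed in C3H against C57Bl/6 (2743 to 3705 with an array left out), 807 in B6C3F1 against C57Bl/6 (463 to 1407), 1330 in B6C3F1 against C3H (945 to 1753) and 163 in B6C3F1 against the midparent (96 to 383). Centring moved the higher and lower calls to 324 and 157 in B6C3F1 against C57Bl/6, against 426 and 381 without it, and to 430 and 620 in B6C3F1 against C3H, against 783 and 547.

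Same-numbered arrays of different strains did not deviate together (15 pairs, r from -0.06 to 0.11), and 2 of 15 arrays correlated best with their own number. With the replicate number as a block, 6, 1, 0 and 0 members passed in the 4 contrasts, and 3353, 819, 1329 and 208 of all probe sets. The replicate numbers run in the order of the samples within each strain and name no shared batch. Neither the correlations nor the block can therefore test for a batch or a pairing. Dim probe sets such as Nnt 1432608_at have wide intervals. A probe set had no value under the stricter limit for dim sets, or under 1 probe set per gene, where that setting left it out.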
